A study of Mus musculus with 12 samples.

Results

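Inhibitory checkpoint receptors are surface proteins that restrain activated T cells, and 9 genes of this kind were followed here, namely *Pdcd1*, *Ctla4*, *Lag3*, *Havcr2*, *Tigit*, *Cd160*, *Btla*, *Cd200* and *Cd96*. They were taken by gene symbol and made up 9 of the 25860 genes listed in the RNA-seq data, together with every ATAC-seq peak assigned to one of these symbols. The cells were CD8+ progenitors (T_prog_) sorted from pancreatic lymph nodes, and the question was how expression and chromatin accessibility of these receptors differ when T cells lack UTX, the histone demethylase encoded by *Kdm6a*. The genotypes were *NOD-TCR 8.3 WT* (WT below) and the knockout strain *NOD-TCR 8.3 UTX TCD* (*UTX TCD* below), with 3 RNA-seq and 3 ATAC-seq libraries per genotype, described as biological replicates. Both groups have the nonobese diabetic background and the transgenic NY8.3 T cell receptor, which recognizes a peptide of the β cell antigen IGRP on MHC class I. In *UTX TCD* mice an Lck-driven Cre deletes floxed *Kdm6a* in T cells. The article names Cre-negative littermates as WT controls for the parental line without the transgenic receptor. According to the methods all animals were female, and an age for the sequenced animals is not given in the sources used here. Sorting is described differently in the 2 sources, as Ly108+CXCR6- in the sample labels and as Ly108+CD39- in the article.

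These receptors act in families. PD-1 (*Pdcd1*) and CTLA-4 belong to the CD28 family, BTLA and CD160 share the ligand HVEM, and TIGIT and CD96 compete with the activating receptor CD226 for nectin-type ligands, while LAG-3 binds MHC class II, TIM-3 (*Havcr2*) binds galectin-9 among other ligands, and CD200 is itself the ligand of the inhibitory receptor CD200R. Chronically stimulated CD8+ T cells accumulate several of them, with TIM-3 typical of terminally differentiated cells and PD-1 shared by progenitor and differentiated cells.

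Reads counted in genes numbered 146456724, 144503203 and 193568919 for the WT libraries, against 61512402, 175462433 and 187275082 for *UTX TCD*. Because *UTX TCD* replicate 1 was the shallowest, a single read there stands for 2.25 normalized counts, whereas it stands for less than 1 in each of the other libraries. *Kdm6a* was counted at 28365, 28949 and 29172 in the WT libraries and at 24158, 24792 and 24579 in the *UTX TCD* libraries. All *UTX TCD* values lay below all WT values (log2 fold change -0.23, SE 0.04, limma adjusted p = 0.00114), without reaching the fold limit used below. The floxed exons cannot be seen in counts summed over a gene, so the deletion itself was not tested.

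The sorted cells carried the transcripts of CD8+ T cells. *Cd8a* was at 272155 ± 2012 normalized counts in WT and 298501 ± 23849 in *UTX TCD* cells, and *Cd8b1* at 141469 ± 6442 and 109592 ± 13063 (SD, n = 3 each). *Cd3d* was at 68519 ± 4817 and 56441 ± 2131, *Cd3e* at 139315 ± 6093 and 156333 ± 8038, and *Cd3g* at 125749 ± 8341 and 105191 ± 2290 in the same order (SD, n = 3 each). *Cd247* was at 68284 ± 4918 and 59674 ± 1220, *Lck* at 175340 ± 6091 and 155913 ± 4143, and *Trac* at 103618 ± 4604 and 102852 ± 4403 (SD, n = 3 each). None of these 8 identity genes passed the fold limit used below, but 6 had a limma adjusted p under 0.05, with *Cd3e* higher in *UTX TCD* cells and *Cd8b1*, *Cd3d*, *Cd3g*, *Cd247* and *Lck* lower. *Tcf7*, which encodes the progenitor factor TCF1, was at 235632 ± 8264 in WT and 224012 ± 4856 in *UTX TCD* cells (SD, n = 3 each). Among the genes of the gates, *Slamf6* (Ly108) was at 28378 ± 5425 and 34357 ± 2989 and *Entpd1* (CD39) at 17.3 ± 10.7 and 7.24 ± 4.82 (SD, n = 3 each). *Cd44*, which rises on activated T cells, was at 11830 ± 377 and 13342 ± 855 (SD, n = 3 each). CD44 is not named in either gate for sequencing, but progenitors for transfer were sorted among CD44+ cells in the article. *Cxcr6* transcripts were abundant in these cells, at 12757, 9619 and 13724 in WT and 5286, 5994 and 5695 in *UTX TCD* libraries (log2 fold change -1.07, SE 0.12, limma adjusted p = 0.000131).

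Of the 9 receptor genes, 4 were lower in *UTX TCD* T_prog_ cells and 0 were higher in the limma test of log2(normalized count + 1), where a call required both a Benjamini-Hochberg adjusted p under 0.05 and a log2 fold change beyond 0.5 in either direction. *Cd160* and *Havcr2* differed most, *Cd200* came next and *Pdcd1* passed narrowly. For comparison, 7.05% of the 14459 genes tested were called lower and 10.5% higher with the same limits. The receptors were chosen with earlier results of these data known. Whether their counts or median differ from those of all tested genes was not tested. An adjusted p under 0.05 with a lower level at any fold was found for 5 of the 9 receptors and 20.5% of tested genes, and all *UTX TCD* values lay below all WT values in 5 of the 9 and in 26.1% of tested genes. No receptor was higher at an unadjusted p under 0.05 either, and edgeR and DESeq2 on the recovered reads called 0 of them higher, with 3 and 4 called lower. Over all genes, edgeR called 2580 of 14677 and DESeq2 2494 of the 25860 listed, in either direction. The median log2 fold change of the receptors was -0.48, beside 0.00 over all tested genes. *Havcr2* passed the filter, a mean of at least 10 over the 6 libraries, at 10.5 and through its WT values, and without it 3 of 8 receptors were called lower with a median of -0.44. The other 8 receptors were above the filter in both genotypes. An exact permutation of 3 libraries against 3 cannot give a p below 0.10 for 1 gene. The limma p-values set each difference against a variance between these libraries that is moderated over all tested genes. In bulk RNA, fewer cells with a transcript and less of it per cell cannot be told apart.

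**Figure D1:**
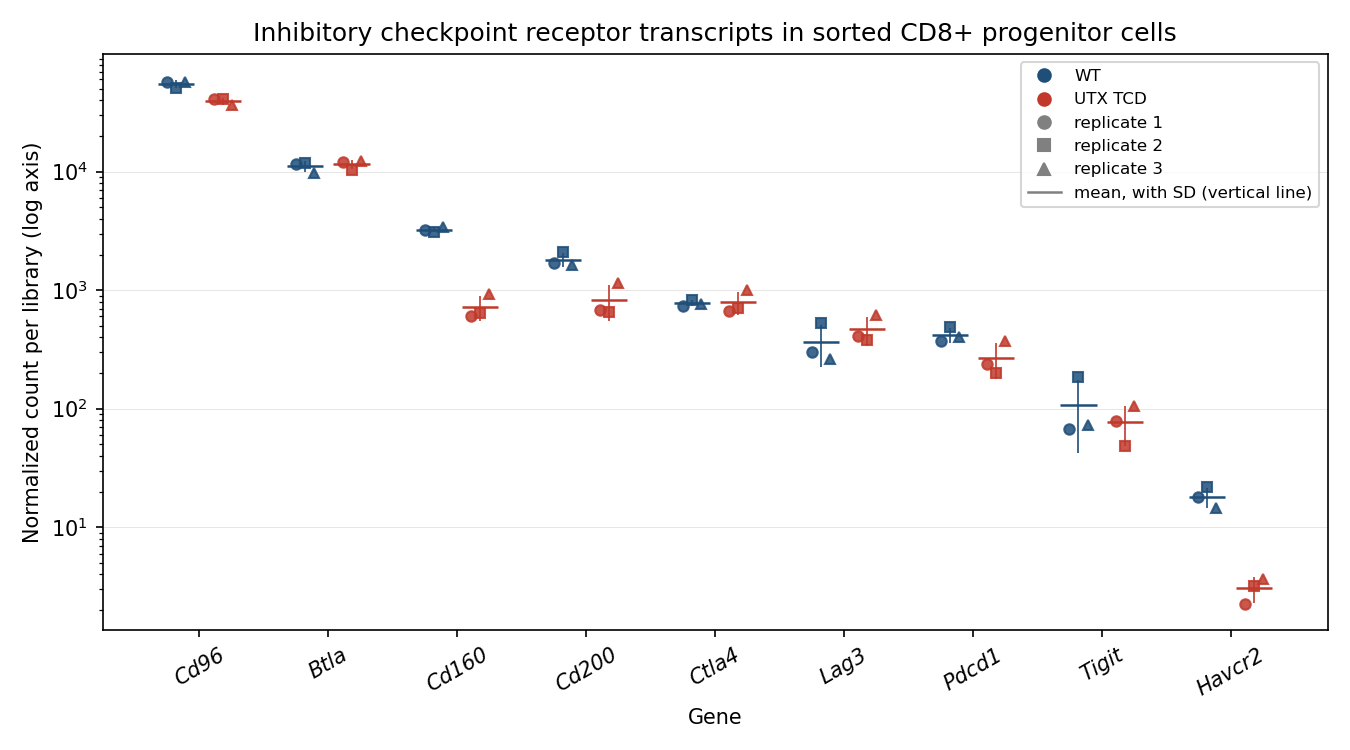
Normalized counts of the 9 receptor genes in each RNA-seq library, on a logarithmic axis, with WT in blue and *UTX TCD* in red, a marker shape for each replicate number, and a horizontal line at the mean with a vertical line of 1 SD on either side (n = 3). *Cd160*, *Cd200*, *Pdcd1*, *Havcr2* and *Cd96* have every *UTX TCD* value below every WT value, with *Cd160* means of 3239 in WT and 724 in *UTX TCD* cells, and the genotypes overlap for *Ctla4*, *Lag3*, *Tigit* and *Btla*.

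*Pdcd1*, whose product PD-1 recruits phosphatases that dampen T cell receptor and CD28 signals, was counted at 373, 489 and 399 in the WT libraries and at 236, 199 and 369 in the *UTX TCD* libraries. The groups did not overlap, but *UTX TCD* replicate 3 came close to the lowest WT library. The fitted difference was -0.69 in log2 (SE 0.22, limma adjusted p = 0.0351). This call was lost under 7 of 16 alternative settings, with adjusted p values from 0.00298 to 0.118 over all of them. It was lost with libraries scaled to the same sum (0.0595), in edgeR (0.0532), and without WT replicate 1 (0.0549), 2 (0.11) or 3 (0.0639) or *UTX TCD* replicate 1 (0.084) or 2 (0.118), adjusted p in each case. The log2 fold change was -0.63 with libraries scaled to the same sum and -0.64 in edgeR. It was -0.77, -0.57 and -0.72 without WT replicates 1, 2 and 3, and -0.62 and -0.498 without *UTX TCD* replicates 1 and 2.

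*Ctla4*, encoding the receptor that outcompetes CD28 for CD80 and CD86, was at 741, 830 and 766 in WT and at 666, 711 and 997 in *UTX TCD* libraries. The *UTX TCD* libraries lay on both sides of the WT range. The difference for this gene was 0.00 in log2 (SE 0.15, limma adjusted p = 0.999), and no alternative gave a call. Its sign turned under 5 of them, at -0.04 without WT replicate 1, -0.01 without WT replicate 3, -0.18 without *UTX TCD* replicate 3, -0.11 with quantile normalization and -0.13 without WT replicate 2 and *UTX TCD* replicate 3 together.

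The HVEM-binding receptors differed from each other. *Cd160*, a glycosylphosphatidylinositol-anchored receptor of cytotoxic lymphocytes, was counted at 3190, 3119 and 3409 in WT and at 610, 642 and 921 in *UTX TCD* libraries. Every *UTX TCD* library was far below the WT libraries, which lay within a narrow range. The log2 fold change of -2.18 (limma SE 0.14, adjusted p = 7.83e-06) corresponds to a 4.54-fold lower level. The profiles most like that of *Cd160*, looked up after the values were seen, were those of *Fgr*, *Cd86* and *Igsf23*, with root mean square differences of 0.059, 0.089 and 0.104 in centred log2(normalized count + 1) over the 6 libraries and the same order with pseudocounts of 0.5 and 4. *Btla*, whose product carries inhibitory motifs in its cytoplasmic tail, was at 11496, 11934 and 9835 in WT and at 12160, 10416 and 12257 in *UTX TCD* libraries. These ranges overlapped, with a log2 fold change of 0.07 (limma SE 0.09, adjusted p = 0.566) that was -0.0166 without WT replicate 3.

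*Cd96*, also the highest of the 9 per kilobase of exon, was at 57500, 50501 and 57370 in WT and at 41168, 40956 and 36431 in *UTX TCD* libraries. Its groups were well separated relative to their spread. The log2 fold change of -0.48 (limma SE 0.07, adjusted p = 0.000557) was just under the limit of 0.5, so *Cd96* was not called, and it passed that limit without WT replicate 2 (-0.54) or *UTX TCD* replicate 1 (-0.51) or 2 (-0.51), with adjusted p values from 2.65e-10 to 0.00326 over all alternatives. *Tigit*, which encodes the other nectin-family competitor, was at 67.4, 184 and 73.2 in WT and at 78.7, 48.0 and 105 in *UTX TCD* libraries. WT replicate 2 stood above the other 5 libraries, and the rest were mixed. The log2 fold change of -0.39 (limma SE 0.42, adjusted p = 0.486) was 0.0645 without that library.

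*Lag3*, a CD4-related receptor whose signals limit T cell expansion, was at 303, 524 and 264 in WT and at 409, 380 and 613 in *UTX TCD* libraries. WT replicate 2 was the second highest of the 6 libraries, and the groups overlapped through it. The fitted difference was 0.39 in log2 (SE 0.27, limma adjusted p = 0.274). Without WT replicate 2 it was 0.69 (limma adjusted p = 0.0381), which would be a call in the higher direction, and the adjusted p ranged from 0.025 to 0.629 over the alternatives.

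*Havcr2*, encoding TIM-3, was near the lower end of detection at 17.8, 21.7 and 14.5 in WT and 2.25, 3.20 and 3.69 in *UTX TCD* libraries. These values stood for 18, 22 and 19 reads against 1, 4 and 5 reads. Every *UTX TCD* library was below every WT library. Summed over libraries and corrected for size factors, 59 against 10 reads gave a 5.40-fold lower level in *UTX TCD* cells (95% exact interval 2.74 to 11.8, counting error only). The fitted log2 fold change of -2.23 (limma SE 0.43, adjusted p = 0.00301) moved between -2.49 and -1.64 with the pseudocount, test and other alternatives. Which genes have the profile most like *Havcr2* changed with the pseudocount, so they are not named.

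*Cd200*, which encodes an immunoglobulin family glycoprotein of activated lymphocytes, was at 1696, 2089 and 1637 in WT and at 675, 651 and 1142 in *UTX TCD* libraries. The highest *UTX TCD* library, replicate 3, stayed below the lowest WT library. The difference for this gene was -1.18 in log2 (SE 0.20, limma adjusted p = 0.00168), a 2.26-fold lower level.

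The libraries differed within genotypes as well. WT replicate 2 was the highest WT library for 7 of the 9 genes and *UTX TCD* replicate 3 the highest *UTX TCD* library for 8 of the 9, whereas these libraries were the highest of their genotype for 36.3% and 39.3% of all tested genes. With both left out, an alternative chosen after seeing the data, *Pdcd1*, *Cd160* and *Cd200* were called lower at log2 fold changes of -0.83, -2.40 and -1.33, and *Havcr2* dropped under the filter.

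Levels of different genes were compared as normalized counts per kilobase of merged RefSeq exons. In WT cells the order was *Cd96* at 25274 ± 1836, *Btla* at 3428 ± 342, *Cd160* at 1226 ± 57.3, *Cd200* at 770 ± 105, *Ctla4* at 403 ± 23.8, *Pdcd1* at 218 ± 31.4, *Lag3* at 182 ± 70.1, *Tigit* at 112 ± 68.0 and *Havcr2* at 6.61 ± 1.33 per kb (SD, n = 3 each). *Pdcd1* and *Lag3* overlapped between libraries, as did *Lag3* and *Tigit*. In *UTX TCD* cells *Cd96* and *Btla* were again first and *Havcr2* last, at 18119 ± 1227, 3589 ± 320 and 1.12 ± 0.268 per kb (SD, n = 3 each). *Cd160* moved from the third to the fifth place, at 274 ± 64.7, behind *Ctla4* at 409 ± 92.8 and *Cd200* at 350 ± 118 per kb (SD, n = 3 each). From *Ctla4* down to *Tigit*, each neighbour in the *UTX TCD* order overlapped the next.

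The ligands and counter-receptors were described by a list of 16 genes, of which 13 were tested. Of these, 4 were called higher and 1 lower, beside 10.5% and 7.05% of all tested genes. Their median log2 fold change was 0.48, beside 0.00 for all tested genes. For this list and those below, whether the counts differ from these shares was not tested. *Cd80* reached the filter through its *UTX TCD* values alone, and without it 3 of 12 were called higher and 1 lower, with a median of 0.31. *Cd80* and *Cd86*, the shared ligands of CTLA-4 and CD28, moved in opposite directions. *Cd80* had 2, 3 and 0 reads in the WT libraries against 28, 63 and 86 in the *UTX TCD* libraries, or 38.7-fold more after correction for size factors (95% exact interval 16.3 to 121, counting error only). The *Cd80* ratio was 67.3 without WT replicate 2 and 23.5 without WT replicate 3. *Cd86* was at 1377, 1383 and 1405 in WT and 274, 282 and 464 in *UTX TCD* libraries, a log2 fold change of -2.07 (limma SE 0.18, adjusted p = 4.11e-05). All 3 libraries of each genotype lay apart for both genes. *Cd200r1*, the receptor for CD200, rose from 448 ± 20.5 to 855 ± 62.9 (SD, n = 3 each), a log2 fold change of 0.93 (limma SE 0.10, adjusted p = 0.000115). *Nectin3*, a low transcript whose product binds TIGIT, rose from 18.6 ± 4.00 to 50.1 ± 8.32 (SD, n = 3 each). *Cd274* (PD-L1) was at 8772 ± 200 and 12268 ± 840 (SD, n = 3 each), with a log2 fold change of 0.48 under the limit, and was picked after its values were seen.

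Of the activating receptors of these families, *Icos* was called lower and *Cd28* and *Cd226* were not called. *Icos* was at 8687, 9532 and 8130 in WT and at 5605, 5392 and 4859 in *UTX TCD* libraries, a log2 fold change of -0.73 (limma SE 0.07, adjusted p = 7.72e-05). *Cd28*, at 0.26 (SE 0.07, limma adjusted p = 0.0127), and *Cd226*, at 0.19 (SE 0.04, limma adjusted p = 0.00312), were higher in every *UTX TCD* library but under the fold limit, and the median of these 3 genes was 0.19. The list of other inhibitory receptors held 15 gene symbols, of which 14 were in the data, *Cd244* only as *Cd244a*, and 12 were tested. Of these 12, 2 were called higher and 4 lower, beside 10.5% and 7.05% of all tested genes, with a median of -0.33. *Siglecg* reached the filter through its *UTX TCD* values alone and *Lilrb4a* and *Entpd1* through WT, and without these 3 genes 1 of 9 was called higher and 4 lower, with a median of -0.24. *Lair1*, a collagen receptor, was at 1020, 759 and 1040 in WT and at 63.0, 76.9 and 40.5 in *UTX TCD* libraries, a log2 fold change of -3.98 (limma SE 0.24, adjusted p = 4.74e-06). *Klrc1*, which encodes the NKG2A chain, rose from 43.3 ± 12.4 to 329 ± 82.4 (SD, n = 3 each), and *Cd101* fell from 521 ± 66.8 to 214 ± 19.4 (SD, n = 3 each). *Siglecg* had 2, 2 and 6 reads in the WT libraries against 7, 14 and 47 in *UTX TCD* libraries, or 7.43-fold more (95% exact interval 3.80 to 16.2, counting error only). The *Siglecg* ratio was 11.3 without WT replicate 3 and 4.13 without *UTX TCD* replicate 3.

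Of 18 signalling genes below the receptors, all tested, 1 was called higher and 1 lower, beside 10.5% and 7.05% of all tested genes. Their median was -0.02. *Trat1*, an adaptor that promotes CTLA-4 at the cell surface, fell from 6387 ± 1530 to 1885 ± 258 (SD, n = 3 each), and *Cmtm4*, which together with CMTM6 maintains PD-L1, rose from 1323 ± 69.2 to 2565 ± 68.6 (SD, n = 3 each). Among 20 transcription factor genes linked to these receptors, 7 were called higher and 0 lower, beside 10.5% and 7.05% of all tested genes. Their median was 0.36, beside 0.00 for all tested genes. *Maf* was at 297, 369 and 288 in WT and at 2094, 2019 and 2346 in *UTX TCD* libraries, a log2 fold change of 2.76 (limma SE 0.12, adjusted p = 5.07e-07). *Tox2*, *Nr4a2* and *Tbx21* had log2 fold changes of 1.66, 1.63 and 1.16.

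Markers of other cell types were read beside the receptors, and a contribution of other cells to the receptor levels was not tested. Of 10 B cell markers, 9 were tested, and their sum was 115939, 98248 and 107686 in WT and 97027, 91668 and 83216 in *UTX TCD* libraries, most of it *Ighm*. *Cd79b* and *Ighd* were called lower and *Ms4a1* and *Cr2* higher. For 8 markers of CD4, regulatory and follicular helper T cells, 7 of them tested, the sum was 4699, 5258 and 4193 in WT and 8336, 8284 and 10922 in *UTX TCD* libraries, led by *Cxcr5*, which was called higher, while *Zbtb7b* and *Cd4* were called lower. *Cxcr5* alone was at 2581 ± 254 and 7122 ± 1275 (SD, n = 3 each). *Foxp3*, *Il2ra* and *Ikzf4* overlapped between the genotypes, and *Cd40lg* was lower in every *UTX TCD* library without a call. For 12 myeloid and dendritic markers, 8 of them tested, the sum was 5988, 5330 and 4546 in WT and 4733, 3682 and 3841 in *UTX TCD* libraries, led by *Cst3*, with *Itgam*, *Fcgr3* and *Csf1r* called lower, the last of which reached the filter through WT alone. Without a call, *Cd68* was at 632 ± 77.1 and 857 ± 138 and *Zbtb46* at 32.7 ± 12.9 and 60.3 ± 14.5 (SD, n = 3 each), and *Lyz2* and *Xcr1* overlapped between the genotypes. For the 7 listed of 9 markers of NK cells and gamma delta T cells, 5 of them tested, it was 80129, 74703 and 74984 in WT and 81900, 77343 and 84040 in *UTX TCD* libraries, led by *Trdc*. Within this list *Klra4*, *Sox13* and *Eomes* were called higher, whereas *Trdc* itself was lower in every *UTX TCD* library, at 60830 ± 3676 and 54130 ± 2937 (SD, n = 3 each), and *Klrb1c* was at 33.6 ± 19.7 and 15.0 ± 10.2 (SD, n = 3 each), both without a call. No listed marker was at 0 in all 6 libraries.

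Accessibility near the receptors was read from 13 peaks of 401 bp on mm10, assigned to 7 of the 9 genes. Each peak carries the log2 of the authors' mean normalized read count per genotype, so the differences below have no replicate spread and were not tested. The table lists peaks with an FDR under 0.05 in the authors' comparison, and a region without a listed peak has no value. Higher means in *UTX TCD* cells were found for 9 of the 13 peaks and lower for 4, while 68.8% of all 23932 listed peaks were higher, with a median difference of 0.49. Beyond 0.5 in either direction, 4 receptor peaks were higher and 4 lower, beside 67.5% higher among all listed peaks of that size, and beyond 1 it was 1 higher and 3 lower, beside 65.1%. Whether these counts differ from those of all peaks was not tested.

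The peaks assigned to *Cd200*, which was called lower, and to *Cd96*, which was not called, were all lower. At *Cd200* the authors' mean was 6.44 in WT and 4.91 in *UTX TCD* cells for a peak in intron 5 of 5 (chr16:45383629-45384029), a difference of -1.54, and -0.65 at the transcript end. At *Cd96* the authors' mean was 8.87 in WT and 7.38 in *UTX TCD* cells, a difference of -1.48, for a peak in intron 3 of 14 (chr16:46103111-46103511). *Pdcd1* held both directions. Its peak in intron 1 of 4 (chr1:94042277-94042677) was at 5.53 in *UTX TCD* cells, a difference of -1.47, whereas intergenic peaks at -39405 bp and -94741 bp from the start site were higher by 0.62 and 1.43, the latter at chr1:94147094-94147494.

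At the remaining genes every assigned peak was higher, whether or not the transcript differed. For *Havcr2*, whose transcript was lower, the peak at -6678 bp was at 8.34 and 9.08 in the authors' means, a difference of 0.74. *Btla* had 3 peaks with differences of 0.44 to 0.54, its promoter peak at 10.15 and 10.58. The *Ctla4* promoter peak (chr1:60908836-60909236) was at 10.22 and 10.60, and a second peak at 32186 bp differed by 0.34, inside the body of *Gm34649*. *Tigit* had a peak at -45821 bp with a difference of 0.33. Within 100 kb of *Tigit*, 4 further peaks were assigned to *Mir568* and were looked up after the values were seen. The peak in the last intron of *Tigit* (chr16:43650343-43650743) had authors' means of 8.71 and 8.32, a difference of -0.39. The others lay outside *Tigit* and inside the body of *Zbtb20*, at 840 bp, 5389 bp and 51747 bp from *Tigit*, with differences of 0.45, -1.61 and 0.65.

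No peak was assigned to *Cd160*, the receptor gene with the smallest adjusted p, or to *Lag3*. Peaks assigned to other genes within 100 kb were looked up after the values were seen. Of 4 such peaks around *Cd160*, the nearest lay 8389 bp away in an intron of *Pdzk1* (chr3:96837740-96838140) and had authors' means of 6.28 and 5.01, a difference of -1.27, and the others differed by -0.68, -0.34 and 0.48. Around *Lag3* there were 3, from 0.29 to 0.38, the nearest 40202 bp away at *Gpr162*. *Havcr2* had 7, of which 5 were higher, from 0.22 to 0.35, and 2 assigned to *Fam71b* were lower, with differences of -0.47 at 49558 bp and -1.57 at 44131 bp. *Cd96* had 5, of which 4 assigned to *Plcxd2* differed by -0.69 to 0.30 and 1 assigned to *Gm4737* by 1.47 at 95106 bp. Around *Ctla4* there were 3, with a difference of -0.98 for a peak assigned to *Cd28* and of 0.43 and 0.70 for peaks at the promoter and in intron 1 of *Icos*. The *Icos* transcript was called lower, and *Cd28* was not called.

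**Figure D2:**
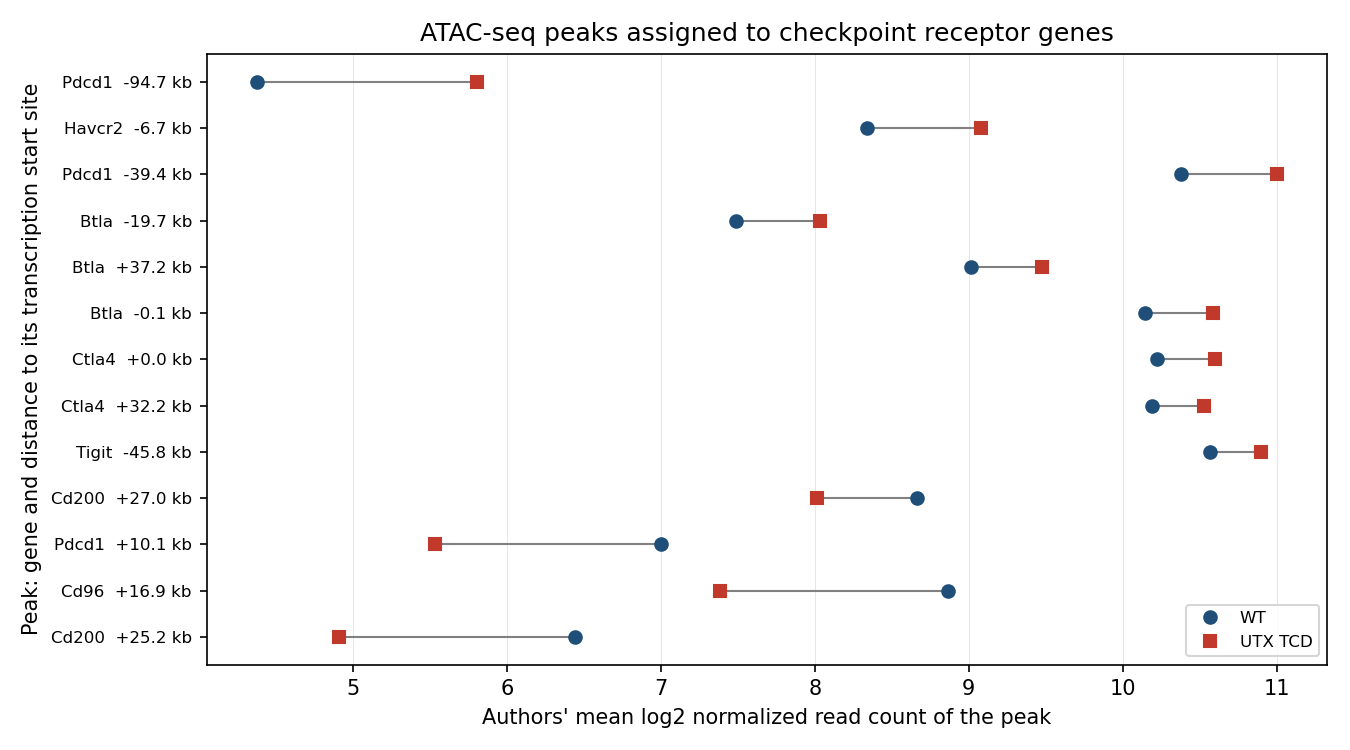
The 13 ATAC-seq peaks assigned to receptor genes, ordered by difference, with the log2 of the authors' mean normalized read count in WT (blue circles) and *UTX TCD* cells (red squares) on the horizontal axis and the gene with the distance to its transcription start site on the vertical axis. The 4 lower peaks, down to -1.54, belong to *Cd200*, *Pdcd1* and *Cd96*, the other 9 are higher, up to 1.43, and no error is shown because the values are group means.

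Position was shared by part of the group. *Tigit*, *Btla*, *Cd200* and *Cd96* lie within 2.49 Mb of chromosome 16 (GRCm38), with *Btla* and *Cd200* separated by 129 kb, and *Cd200* was called lower while *Btla* was not called. *Tigit* overlaps *Zbtb20* by 8256 bp and contains *Mir568*, and *Cd96* contains *Gm50487*. The strand setting of the counting is not given in the sources used here, so reads from overlapping genes cannot be told apart.

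The 3 lower peaks within introns and the distal *Pdcd1* peak with the largest higher value are shown by sequence, as the central 300 bases of each, because they carry the largest differences of accessibility in the group. They are reference sequences of RefSeq GRCm38.p6 on the plus strand, not read from the NOD genome, and capitals mark motif letters on either strand. The motifs searched were TCF/LEF CTTTGAT, AP-1 TGANTCA, STAT TTCNNNGAA, RUNX TGTGGT, NFAT TGGAAA and ETS CCGGAAG. Among 23907 listed peaks of the same length on assembled chromosomes, these occurred in 9.01%, 12.8%, 11.9%, 39.7%, 27.6% and 5.00%, and among the 13 receptor peaks in 3, 2, 0, 7, 4 and 0. In the windows shown, the *Pdcd1* intron 1 peak holds an NFAT match, the *Cd200* peak an AP-1 and a TCF/LEF match, and the *Cd96* and distal *Pdcd1* peaks none.
Pdcd1 intron 1 peak, chr1:94042327-94042626: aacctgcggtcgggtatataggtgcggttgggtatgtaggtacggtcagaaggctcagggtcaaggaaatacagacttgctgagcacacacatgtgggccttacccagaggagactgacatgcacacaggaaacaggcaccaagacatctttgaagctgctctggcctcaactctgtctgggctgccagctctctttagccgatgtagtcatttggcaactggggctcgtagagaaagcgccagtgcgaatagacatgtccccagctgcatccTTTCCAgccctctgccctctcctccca
Cd200 intron 5 peak, chr16:45383679-45383978: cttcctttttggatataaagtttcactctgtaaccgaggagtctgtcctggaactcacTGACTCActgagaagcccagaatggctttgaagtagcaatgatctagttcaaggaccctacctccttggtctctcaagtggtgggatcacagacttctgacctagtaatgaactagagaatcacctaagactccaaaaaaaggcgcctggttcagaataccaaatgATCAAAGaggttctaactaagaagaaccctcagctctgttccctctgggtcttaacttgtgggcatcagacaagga
Cd96 intron 3 peak, chr16:46103161-46103460: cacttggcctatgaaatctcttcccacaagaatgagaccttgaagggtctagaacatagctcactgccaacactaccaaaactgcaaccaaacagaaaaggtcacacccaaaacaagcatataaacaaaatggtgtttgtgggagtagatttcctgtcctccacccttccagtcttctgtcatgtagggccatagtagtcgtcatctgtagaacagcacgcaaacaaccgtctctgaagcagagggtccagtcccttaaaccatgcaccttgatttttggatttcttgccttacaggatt
Pdcd1 distal peak, chr1:94147144-94147443: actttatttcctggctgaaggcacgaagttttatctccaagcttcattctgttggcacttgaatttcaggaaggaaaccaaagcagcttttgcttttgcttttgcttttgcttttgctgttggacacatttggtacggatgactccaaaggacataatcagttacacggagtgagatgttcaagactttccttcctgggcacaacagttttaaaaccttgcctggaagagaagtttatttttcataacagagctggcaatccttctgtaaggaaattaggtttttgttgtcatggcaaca
A match is a description of letters and not a bound site, and no match says only that these letters are not in the window.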

How the data were processed

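RNA-seq and ATAC-seq were measured in sorted CD8+ T_prog_ cells, 3 libraries per genotype and assay. For the RNA-seq signal, the authors used HISAT2 2.2.1 on mm10, featureCounts per gene and DESeq2 normalization, and deposited the normalized counts. For ATAC-seq, the deposited log2 means per genotype come from reads trimmed with Cutadapt, aligned with Bowtie2, called with MACS2, compared with DiffBind and annotated with HOMER by the authors. The FDR, a kind of p-value deposited by the authors, was read only to see that every listed peak is under 0.05. The authors' own comparison columns, which hold log2 fold changes, their errors and p-values, were not used. Tool names and the version come from the submitters' processing notes and the methods of the study. No transposase shift, strand setting or gene annotation is given in the sources used here, so overlapping and antisense genes are uncertain.

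The 14459 genes averaging 10 or more normalized counts went into limma 3.58.1 in R 4.3.3 (trend, genotype only) on log2(normalized count + 1), which understates the change of low genes, with Benjamini-Hochberg adjustment over all of them. A gene was called when its adjusted p was under 0.05 and its log2 fold change lay beyond 0.5 in either direction. The procedure was tested on simulated data. Whole reads were recovered from the steps of each library (100% of values whole within 0.02 reads), and edgeR 4.0.16 and DESeq2 1.42.0 on them called 2580 and 2494 genes beside 2538 by limma. Reads counted in genes ranged from 61512402 to 193568919 per library, and intervals are exact binomial and cover counting error only, as reads carry no molecular identifiers. Positions, exon lengths and sequences came from RefSeq GRCm38.p6, the build of mm10, where 9 of 9 receptors matched. A protein search for inhibitory motifs was planned and not run.

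The receptors and gene lists were chosen with earlier results of these data known. Named were all receptors in every library, *Kdm6a*, sort and identity markers, up to 4 called genes with the largest changes per other list (or, with none called, the 2 most abundant), the most abundant marker of each other cell type and any at 0, the 3 genes most like the receptors with the largest fall and rise (none rose, and those of *Havcr2* depend on the pseudocount, so *Cd160* stands in, a choice made after seeing the data), and per receptor the peak with the largest difference and promoter peaks. Alternatives covered the pseudocount, filter, scaling, test, replicate block, fold limit, peak limits and each library left out, and those chosen after seeing the data were leaving out WT replicate 2 and *UTX TCD* replicate 3 together, each library left out of the read ratios, and other pseudocounts for the most similar genes.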

Additional observations from a re-analysis of the deposited data

How the results depend on the processing

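*Cd160* and *Cd200* kept direction and call under all 16 alternatives, from -2.40 to -2.07 and from -1.44 to -1.03 (log2), and *Havcr2* under the 11 that gave a value. *Havcr2* has no value with the filter at a mean of 50, without any 1 of the WT libraries, or with WT replicate 2 and *UTX TCD* replicate 3 both left out, since its mean then falls under the filter. The receptors called were 4, and 2 to 4 with each library left out, but not always the same ones. Without WT replicate 1 or 3 they were 2 (*Cd160* and *Cd200*), and without WT replicate 2 they were 4, with *Lag3* higher and *Cd160*, *Cd200* and *Cd96* lower. Without *UTX TCD* replicate 1 or 2 they were 4 lower, with *Cd96* in place of *Pdcd1*, and without *UTX TCD* replicate 3 the same 4 as with all libraries. The genes called were 2538, 5887 with no limit on the fold change, 1253 with a log2 fold change over 1, and 2162 to 2572 with each library left out. The peaks assigned to receptors were 13, 8 with an absolute difference over 0.5 (4 higher and 4 lower, beside 67.5% higher of all listed peaks) and 4 with one over 1 (1 higher and 3 lower, beside 65.1%).

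The signs of values near 0 turned. *Ctla4* was -0.11 with quantile normalization, -0.13 with both libraries left out (chosen after seeing the data), and from -0.18 to 0.11 with each library left out. With each library left out, *Tigit* ranged from -0.65 to 0.0645 (without WT replicate 2), *Btla* from -0.0166 (without WT replicate 3) to 0.14, *Lag3* from 0.18 to 0.69, *Pdcd1* from -0.94 to -0.50 and *Cd96* from -0.54 to -0.42. *Pdcd1* lost its call at -0.63 with libraries scaled to the same sum and at -0.64 in edgeR. Without *UTX TCD* replicate 2 its fold was also under the limit, and without *UTX TCD* replicate 3 it was farthest from 0. The cause was not tested. Scaling to the same sum moved the median of all genes to 0.062.

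Whether same-numbered libraries form pairs is not known from the labels. Deviations of same-numbered libraries correlated across genes at 0.305, -0.200 and 0.090, and those of differently numbered libraries from -0.324 to 0.294. Deviations were taken from means of only 3 libraries, so these values cannot decide it. With the replicate block, 2474 genes and 4 receptors were called, and *Pdcd1* had a limma adjusted p of 0.0463. *UTX TCD* replicate 1 is the shallowest library, where 3 reads equal 6.75 normalized counts, above the *Havcr2* value there.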
